A study of Arabidopsis thaliana with 4 samples.

Results

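The genes described here are 10 nuclear genes for proteins that carry electrons between the cytochrome b6f complex and NADPH or return them in cyclic flow, with the root-type ferredoxin FD3 among them. They were picked by locus identifier and made up 10 of the 27416 gene models in the deposited tables. They are PETC (AT4G03280), PETE1 (AT1G76100), PETE2 (AT1G20340), FNR1 (AT5G66190), FNR2 (AT1G20020), FD1 (AT1G10960), FD2 (AT1G60950), FD3 (AT2G27510), PGR5 (AT2G05620) and PGRL1A (AT4G22890).

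In linear electron flow, electrons from photosystem II pass through plastoquinone to the cytochrome b6f complex, whose Rieske iron-sulfur protein hands them on towards plastocyanin, a small copper protein of the thylakoid lumen. Plastocyanin reduces photosystem I, which in turn reduces ferredoxin, a soluble iron-sulfur protein of the stroma, and ferredoxin-NADP reductase (FNR) uses reduced ferredoxin to make NADPH. In cyclic flow, electrons return from ferredoxin to plastoquinone, either through PGR5 and PGRL1 or through the chloroplast NADH dehydrogenase-like (NDH) complex. Etiolated seedlings hold etioplasts in place of chloroplasts and build the thylakoid system once light is given.

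Red light (60 µmol/m2/s) was set against darkness in seedlings of the Arabidopsis thaliana ecotype Col-0 with the genotype WT, with 2 samples labelled for each group and a growth time of 4.5 days. Seeds on 1/2 MS plates with 1% sucrose spent 4 days at 4 °C, then 12 h in white light, and only then 4 days under the tested condition. The plates of the dark group had thus also been in light, directly after the cold and before the 4 days of darkness. RNA enriched on oligo(dT) beads was sequenced. The deposited tables gave 1 column of reads and 1 of RPKM (reads scaled to coding length and to the total of the column) for each condition, and no source used here says how the 2 samples entered a column.

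The red-light column summed to 33521717 reads and the dark column to 41106535. With 1 column for each condition, replicate error could not be measured for any value or difference, and no test was run. Ranges in brackets are exact 95% intervals (Clopper-Pearson unless named otherwise). They cover counting error only, not the variation between batches of seedlings or the choice of scaling. Calls required RPKM + 1 to differ at least 2-fold and the higher condition to reach 10 RPKM, and "rose" and "fell" are used only of called genes. Of 6 genes that check the light labels, ELIP1 and CHS rose, PORA, PHYA and PIL1 fell, and LHCB1.3 was not called. LHCB1.3 shares 48.1% of the 31-base stretches of its coding sequence with other annotated transcripts, and how such reads were placed is not known here. Summed over 8 root marker genes the level was 444 RPKM in red light and 496 RPKM in darkness, with 1 of them, NRT2.1, at 0 reads in both columns. In red light and darkness the sums were 975 and 524 RPKM for 3 epidermis markers (1 called higher, PDF1). They were 30.7 and 31.4 RPKM for 3 guard cell markers, and 72.6 and 72.5 RPKM for 3 vascular markers. Such sums weight the most abundant genes. Log2 changes of RPKM + 1 for single genes ran between -0.67 and 0.02 for root and between 0.37 and 1.06 for epidermis markers. They ran between -0.22 and 0.34 for guard cell and between -0.02 and 0.09 for vascular markers. The part of tissue makeup in the results was not tested. In whole seedlings a difference in the number of photosynthetic cells and a difference in RNA per cell cannot be told apart.

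Of the 10 genes, 9 rose in red light and none fell, while FD3 was not called. The background among the 12625 genes that reached 10 RPKM was 8.69% called higher and 5.35% called lower. The 9 rises spanned ratios of 2.03 for PETC to 6.49 for FD2, and the set had a median log2 change of 1.97, against -0.11 for all genes tested. Summed reads of the 10 genes were 0.503% of all reads in red light and 0.141% in darkness, a ratio of 3.57 (3.54 to 3.61). FD2, PETE2 and FD1 held 79.2% of the set's summed RPKM in red light and 68.1% in darkness, and these 3 genes made up 83.5% of the summed difference of 7083 RPKM.

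The order of the levels per coding length differed between the conditions. In red light it ran FD2, PETE2, FD1, PETC, PGR5, PETE1, FNR1, FD3, PGRL1A and FNR2, where PGR5, PETE1 and FNR1, at 278, 277 and 267 RPKM, had counting intervals that overlapped from each to the next. In darkness the order was FD1, FD2, PETE2, PETC, FD3, PGR5, FNR1, PETE1, FNR2 and PGRL1A, with no overlap between neighbours. The highest level was 28.8 times the lowest in red light and 24.2 times in darkness. FD2 stood at rank 13 of the 27416 gene models in red light and at rank 213 in darkness.

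**Figure D1:**
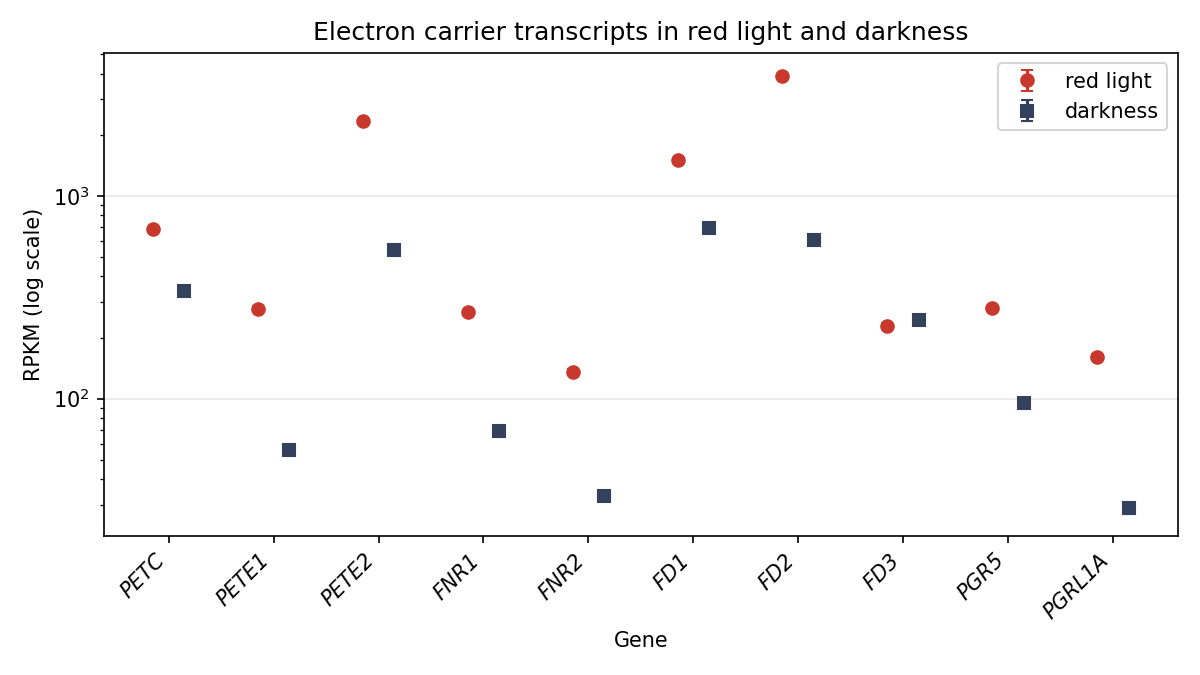
RPKM of the 10 genes on a logarithmic axis, with the red-light column as circles and the dark column as squares. Bars are exact 95% counting intervals, mostly smaller than the symbols, and only FD3 has its red-light value (228 RPKM) below its dark value (245 RPKM).

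The Rieske protein gene PETC, which spans 1440146 to 1441863 of chromosome 4 (plus strand, TAIR10.1) with 5 exons, had 687 RPKM (15880 reads) in red light and 338 RPKM (9576 reads) in darkness. Its ratio was 2.03 (1.98 to 2.09), the smallest of the 9 rises, with an interval that included the 2-fold threshold. PETM, annotated as the small cytochrome b6f subunit petM, also rose, at 1009 RPKM in red light and 429.9 RPKM in darkness, a ratio of 2.35 (2.28 to 2.42). These nuclear subunits of the complex thus had ratios near 2, below those of the plastocyanin genes.

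Of 8 genes for the assembly of the cytochrome b6f complex, 3 were called higher and 0 lower. Among all genes tested, 8.69% were called higher and 5.35% lower. The median log2 change of the 8 was 0.78. CCB3, a cofactor assembly protein of the complex, rose 6.41-fold (5.29 to 7.82) to 37.4 RPKM in red light, against 5.84 RPKM in darkness. DAC, needed for accumulation of the complex, rose 4.70-fold (4.30 to 5.13) to 128 RPKM, against 27.2 RPKM in darkness. HCF164, a thioredoxin-like protein of the thylakoid, rose 2.37-fold (2.13 to 2.64) to 38.8 RPKM, against 16.4 RPKM in darkness. The genes that were not called included CCB1, at 98.4 RPKM in red light and 50.6 RPKM in darkness, and CCB2, at 5.30 and 5.85 RPKM, below the minimum in both conditions.

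The plastocyanin copies rose to a like extent and kept very unequal levels. PETE2, named DRT112 in the RefSeq annotation, had 2346 RPKM (39635 reads) in red light and 542 RPKM (11225 reads) in darkness, a ratio of 4.33 (4.24 to 4.42). PETE1 had 277 RPKM (4785 reads) in red light and 56.0 RPKM (1188 reads) in darkness, a ratio of 4.94 (4.63 to 5.27). The ratio of PETE1 exceeded that of PETE2 by a factor of 1.14 (1.07 to 1.22, exact conditional interval), a small gap beside the common rise. PETE2 held 89.2% (88.9 to 89.5) of the reads of the pair in red light and 90.4% (89.9 to 90.9) in darkness.

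Their coding sequences were 75.0% identical over 503 aligned bases, and the longest identical run was 17 bases. Neither shared any 31-base word with another annotated transcript. Both are genes of 1 exon on the minus strand of chromosome 1, PETE1 from 28553987 to 28554810 and PETE2 from 7042046 to 7043392. The 200 bases before each gene start are shown because both copies hold the same pair of motifs there in the same order, in capitals: TATAAA and CTTATC, the reverse strand of the I-box GATAAG. PETE2 also holds TTTATA, the reverse strand of TATAAA, near the start. Of the 300-base windows of all placed promoters, 53.2% hold TATAAA and 14.6% GATAAG. No share was computed for the pair or its order. The windows were chr1:28554811-28555010 for PETE1 and chr1:7043393-7043592 for PETE2, both on the minus strand and written 5′ to 3′ along the gene.
PETE1: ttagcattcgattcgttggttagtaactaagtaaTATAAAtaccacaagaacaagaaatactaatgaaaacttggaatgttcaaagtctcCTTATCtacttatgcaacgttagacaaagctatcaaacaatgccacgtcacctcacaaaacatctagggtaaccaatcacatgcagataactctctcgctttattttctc
PETE2: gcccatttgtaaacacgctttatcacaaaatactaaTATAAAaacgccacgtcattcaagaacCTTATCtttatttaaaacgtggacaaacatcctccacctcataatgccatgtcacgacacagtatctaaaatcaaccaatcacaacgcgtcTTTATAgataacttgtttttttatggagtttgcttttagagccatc

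The I-box lay at bases -110 to -105 of PETE1 and -137 to -132 of PETE2, and TATAAA at -166 to -161 and -164 to -159, counted back from the annotated gene start. Of 6 genes that handle copper, the metal of plastocyanin, 0 were called, and their median log2 change was 0.15. With 8.69% called higher and 5.35% lower among all genes tested, a count of 0 in so short a list is near the background. PAA2, the copper pump of the thylakoid membrane, was at 30.4 RPKM in red light and 25.8 RPKM in darkness, and PAA1, that of the chloroplast envelope, at 15.2 and 11.4 RPKM. CSD2, a copper superoxide dismutase of the chloroplast, was at 228 RPKM in red light and 218 RPKM in darkness, and its cytosolic counterpart CSD1 at 552 and 619.6 RPKM. CYC6A, a lumenal cytochrome c6-type protein, was not called at 51.5 RPKM in red light and 39.4 RPKM in darkness, and 62.3% of its coding sequence lies inside the span of other genes.

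The ferredoxins separated into 3 responses. FD2, the main ferredoxin of leaves and named FED A in the RefSeq annotation, had 3909 RPKM (58579 reads) in red light and 603 RPKM (11072 reads) in darkness, the largest rise of the set at 6.49-fold (6.36 to 6.62). FD1, the other leaf-type ferredoxin, had 1500.2 RPKM (22479 reads) in red light and 697 RPKM (12802 reads) in darkness, a ratio of 2.15 (2.11 to 2.20), and it was no longer called under quantile normalization. FD3, known as the ferredoxin of roots and other tissues without photosynthesis, had 228 RPKM (3581 reads) in red light and 245 RPKM (4709 reads) in darkness, a ratio of 0.933 (0.893 to 0.974).

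The leaf-type pair stood in opposite order in the columns for red light and darkness, with no replicate error to judge that order. FD2 held 72.3% (72.0 to 72.6) of the reads of FD1 and FD2 in red light and 46.4% (45.7 to 47.0) in darkness, and both genes have the same coding length of 447 bases. The ratio of FD2 exceeded that of FD1 by a factor of 3.01 (2.92 to 3.10, exact conditional interval) and that of FD3 by a factor of 6.96 (6.63 to 7.30). FD3 held 4.05% of the summed RPKM of the 3 genes in red light, against 15.9% in darkness, while its own difference was not called. FD1 and FD2 were 80.5% identical in coding sequence with a longest identical run of 23 bases, FD2 and FD3 were 69.5% identical, and none of the 3 shared a 31-base word with another annotated transcript. FD1 spans 3664187 to 3665040 and FD2 22444307 to 22445291 on chromosome 1, each 1 exon on the plus strand, and FD3 spans 11757955 to 11759588 on the minus strand of chromosome 2, with 2 exons of which 1 is coding.

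Of the 8 root markers, 6 had ratios below 1, and log2 changes of the 8 ran between -0.67 and 0.02, all uncalled. The median log2 change of the 8, with NRT2.1 entered at 0, was -0.21, against -0.11 over all genes tested. FD3, at a log2 change of -0.10, stood at percentile 50.7 of the genes tested. Of the 8 markers, 4 were below 10 RPKM in both columns. The Casparian strip gene CASP1 was at 225 RPKM in red light and 258 RPKM in darkness, and the root auxin carrier PIN2 at 11.5 and 18.8 RPKM. The part of root tissue in the FD3 value was not tested.

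**Figure D2:**
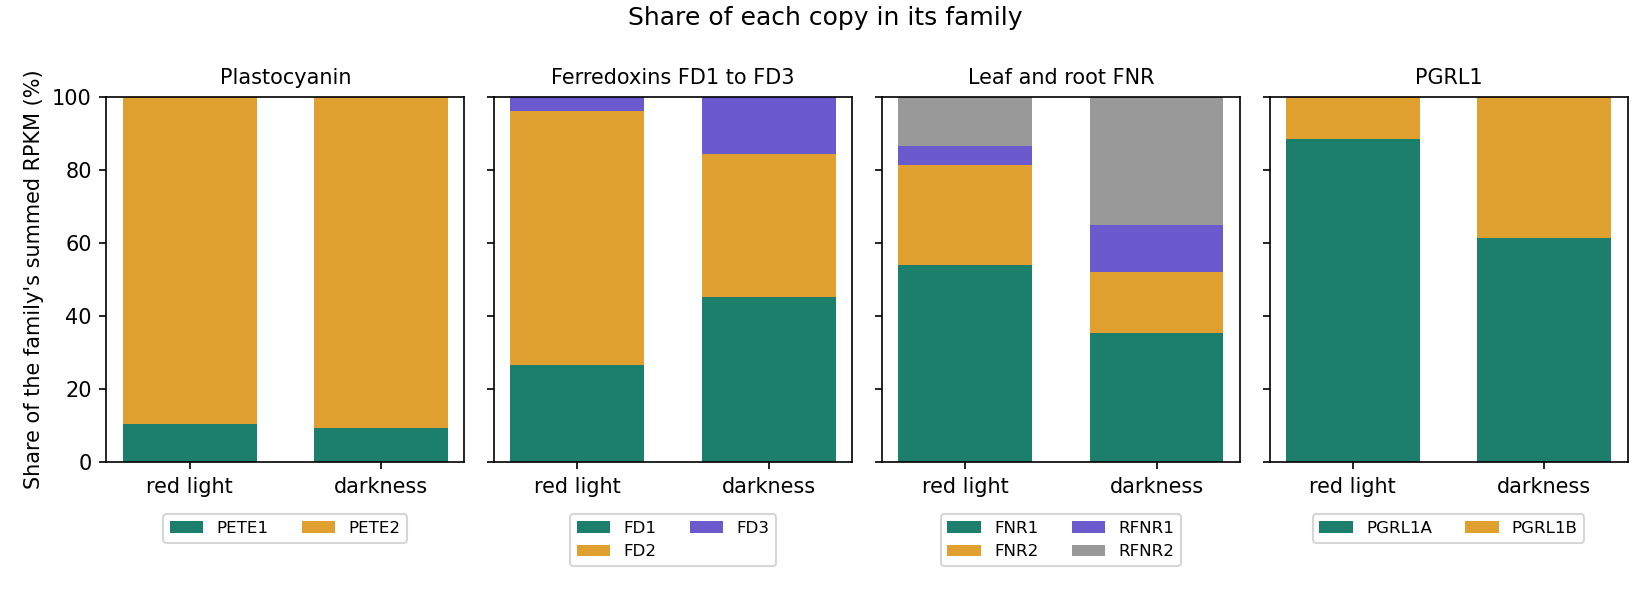
Share of each copy in its family's summed RPKM (percent), with red light left of darkness in each panel. PETE2 holds about the same part of the plastocyanin pair in both conditions, whereas FD2 and PGRL1A hold larger parts in red light (69.3% and 88.2%) than in darkness (39.0% and 61.2%).

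The 300 bases before the starts of FD2 and FD3 are shown since these genes stand at the top and the bottom of the set, with PETC as the one member that holds a G-box. FD2 was read at chr1:22444007-22444306 on the plus strand, FD3 at chr2:11759589-11759888 on the minus strand and PETC at chr4:1439846-1440145 on the plus strand of TAIR10.1. None of the 3 windows reaches into another annotated gene, and capitals mark the motifs found.
FD2: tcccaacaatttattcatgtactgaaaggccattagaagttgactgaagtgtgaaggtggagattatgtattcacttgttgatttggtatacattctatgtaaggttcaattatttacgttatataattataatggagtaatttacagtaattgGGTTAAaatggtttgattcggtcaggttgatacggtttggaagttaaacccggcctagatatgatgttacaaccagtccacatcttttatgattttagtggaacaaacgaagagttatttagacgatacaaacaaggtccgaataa
FD3: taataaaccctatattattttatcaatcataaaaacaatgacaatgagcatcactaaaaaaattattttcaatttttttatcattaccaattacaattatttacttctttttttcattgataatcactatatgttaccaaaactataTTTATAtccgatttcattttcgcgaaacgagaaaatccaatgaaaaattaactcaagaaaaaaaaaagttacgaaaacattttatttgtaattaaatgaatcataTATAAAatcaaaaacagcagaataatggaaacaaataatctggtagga
PETC: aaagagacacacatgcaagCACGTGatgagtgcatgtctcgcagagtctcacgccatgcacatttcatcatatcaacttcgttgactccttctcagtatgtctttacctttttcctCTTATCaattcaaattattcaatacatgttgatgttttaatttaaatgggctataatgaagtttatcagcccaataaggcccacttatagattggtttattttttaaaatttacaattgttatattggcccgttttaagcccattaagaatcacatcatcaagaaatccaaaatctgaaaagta

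In FD2 the capitals are GGTTAA, the GT-1 core, in FD3 the TATA motif on each strand, and in PETC the G-box CACGTG followed by the I-box on the reverse strand. The FD3 window had 21.7% G and C, the lowest of the 10, against 33.7% in FD2 and 34.0% in PETC. Across both strands, 5 motifs were searched in the 300-base windows of all 26694 promoters that could be placed. CACGTG was in 1 of the 10 windows and in 7.38% of all promoters, GATAAG in 4 and in 14.6%, GGTTAA in 1 and in 17.2%, TATAAA in 4 and in 53.2%, and the evening element AAAATATCT in none and in 2.85%. In the windows of the 1090 placed genes called higher, CACGTG was in 12.4%, GATAAG in 18.1% and GGTTAA in 16.6%. There, TATAAA was in 50% and AAAATATCT in 3.12%. The I-box genes were PETC, PETE1, PETE2 and FNR1. The matches did not overlap each other, and a match describes letters and not a bound site. The FD1 window lies wholly inside the neighbouring gene AT1G10950, and of the 300-base windows of FNR1, PETE1 and PETE2, 224, 77 and 65 bases lie inside another gene.

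Among the wider ferredoxin family, FDC2, a ferredoxin with an extended C-terminus, rose 2.35-fold (2.05 to 2.70), at 31.2 RPKM in red light and 13.3 RPKM in darkness. FDC1, a protein of the same kind, was not called at 171 RPKM in red light and 97.0 RPKM in darkness, and 100% of its coding sequence lies inside a gene on the opposite strand. FD4 had 0 reads in both columns, which at its length allows up to 0.200 RPKM in red light and 0.163 RPKM in darkness for a count of 3 reads.

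Leaf-type FNR rose through both of its genes, in nearly fixed proportion. FNR1 had 267 RPKM (9701 reads) in red light and 69.2 RPKM (3082 reads) in darkness, a ratio of 3.86 (3.71 to 4.02). FNR2 had 136 RPKM (5043 reads) in red light and 32.9 RPKM (1503 reads) in darkness, a ratio of 4.11 (3.88 to 4.36). The ratio between them, 1.07 (0.993 to 1.14, exact conditional interval), did not leave 1 beyond counting error. FNR1 held 65.8% (65.0 to 66.6) of the reads of the pair in red light and 67.2% (65.8 to 68.6) in darkness. The copies were 75.7% identical in coding sequence, with 9 exons each. FNR1 spans 26450964 to 26453199 (minus strand, chromosome 5) and FNR2 spans 6942625 to 6945091 (plus strand, chromosome 1).

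The root-type reductases, which supply reduced ferredoxin in tissues without photosynthesis, stayed near a ratio of 1. RFNR1 was at 26.3 RPKM in red light and 25.6 RPKM in darkness, a ratio of 1.03 (0.946 to 1.12), and RFNR2 at 67.1 and 69.0 RPKM, a ratio of 0.972 (0.922 to 1.02). The ratio of FNR1 exceeded that of RFNR1 by a factor of 3.75 (3.41 to 4.12), and that of FNR2 exceeded that of RFNR2 by 4.23 (3.92 to 4.58). In darkness RFNR2 was above FNR2 and about level with FNR1, while in red light it was below both. Of the summed RPKM of the 4 reductases, RFNR2 took 13.5% in red light and 35.1% in darkness, and RFNR1 took 5.31% and 13.0%. The part of root tissue in these shares was not tested.

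Of 3 genes for proteins that hold FNR at membranes, 1 rose and 1 fell, beside 8.69% higher and 5.35% lower among all genes tested. TIC62, which binds FNR at the thylakoid and the inner envelope, rose 4.78-fold (4.41 to 5.18) to 46.3 RPKM in red light, against 9.69 RPKM in darkness. CCL (AT3G26740), homologous to the rice protein LIR1 that works with FNR at the thylakoid, fell 2.75-fold (2.65 to 2.85) to 248 RPKM in red light, against 683 RPKM in darkness. TROL, the thylakoid rhodanese-like anchor of FNR, was not called at 234 RPKM in red light and 165 RPKM in darkness.

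**Figure D3:**
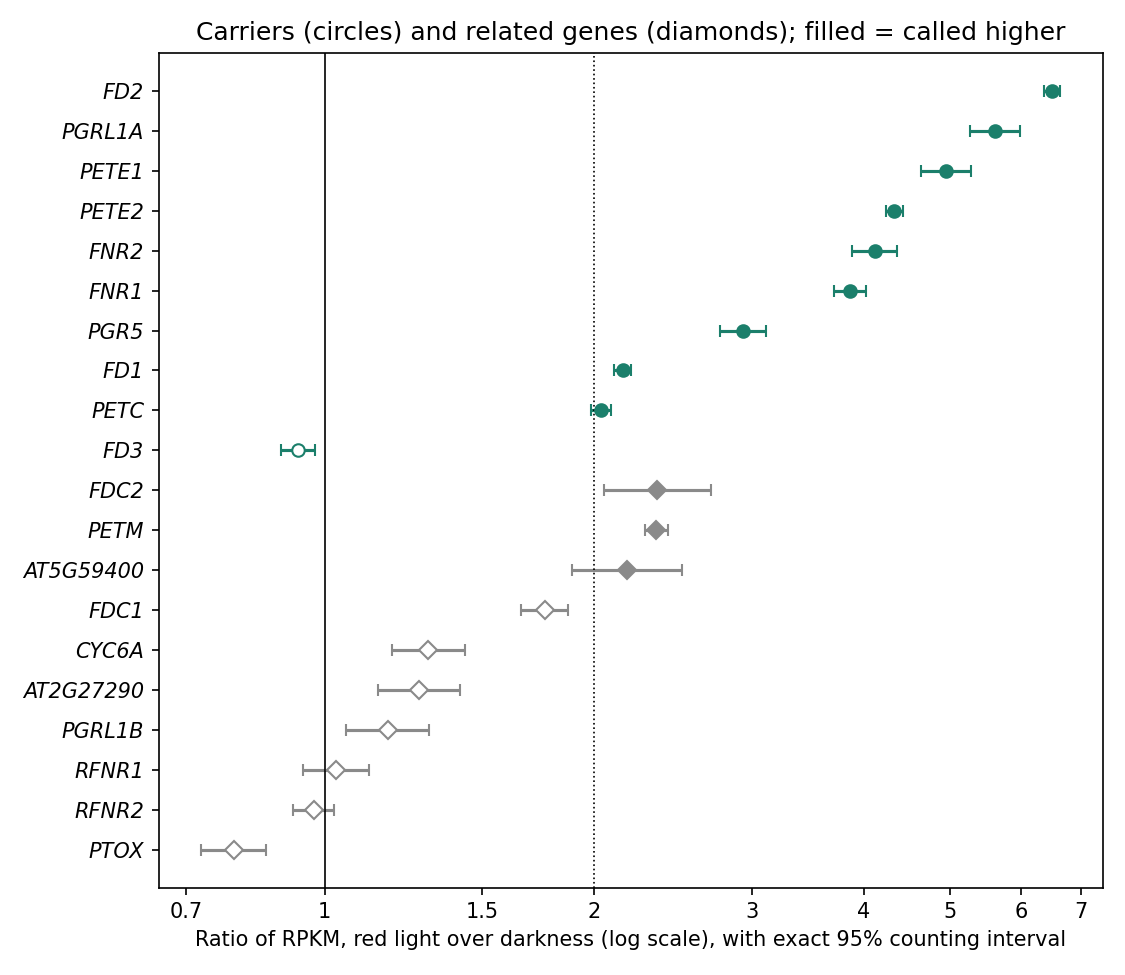
Ratio of RPKM in red light over darkness on a logarithmic axis with exact 95% counting intervals, for the 10 carrier and cyclic flow genes (circles) and 10 of 11 related genes (diamonds), FD4 having no reads. Filled symbols were called higher, and the root-type RFNR1 and RFNR2 lie at 1.03 and 0.972 whereas the leaf-type FNR1 and FNR2 lie at 3.86 and 4.11.

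The cyclic flow genes rose by different factors. PGR5, a small stromal protein required for the antimycin-sensitive route, had 278 RPKM (3748 reads) in red light and 94.9 RPKM (1569 reads) in darkness, a ratio of 2.93 (2.76 to 3.11). PGRL1A, its thylakoid membrane partner, had 161 RPKM (5262 reads) in red light and 28.7 RPKM (1152 reads) in darkness, a ratio of 5.60 (5.25 to 5.98). The ratio of PGRL1A exceeded that of PGR5 by a factor of 1.91 (1.75 to 2.09), and PGRL1A stood at 0.579 of the PGR5 level in red light and at 0.303 in darkness.

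PGRL1B, the second copy of the membrane partner, was not called at 21.4 RPKM in red light and 18.2 RPKM in darkness, a ratio of 1.18 (1.06 to 1.31). PGRL1A held 88.6% (87.8 to 89.4) of the reads of the pair in red light and 62.0% (59.8 to 64.2) in darkness, and the factor between their ratios was 4.76 (4.20 to 5.40). The copies were 83.6% identical in coding sequence and shared 0.847% of the 31-base words of PGRL1A, and how reads common to both were placed is not known here. PGR5 spans 2080647 to 2081858 on the minus strand of chromosome 2 with 3 exons, and PGRL1A spans 12006986 to 12009536 on the plus strand of chromosome 4 with 10 exons. AT5G59400, annotated as a PGR5-like A protein, rose 2.18-fold (1.89 to 2.51), at 18.3 RPKM in red light and 8.43 RPKM in darkness. AT2G27290, annotated as a putative FAM210B-like protein with a domain of unknown function, was not called at 35.8 RPKM in red light and 28.1 RPKM in darkness. PTOX, the plastid terminal oxidase that takes electrons from plastoquinone, was not called at 26.4 and 33.4 RPKM.

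Subunits of the NDH complex, the other cyclic route, were spread more widely. Among 17 nuclear subunit genes there were 11 rises and 0 falls, beside 8.69% higher and 5.35% lower among all genes tested. Their log2 changes ran between -0.56 and 3.87 around a median of 1.58. PNSL3, a lumenal subunit, rose 21.0-fold (16.1 to 27.8) to 44.6 RPKM in red light, against 2.13 RPKM in darkness. PNSB3 rose 15.3-fold (13.2 to 17.8) to 117 RPKM, against 7.63 RPKM in darkness, and NDHT rose 14.8-fold (10.8 to 20.8) to 20.2 RPKM, against 1.36 RPKM in darkness. The summed level of the 17 genes was 1275 RPKM in red light and 698 RPKM in darkness.

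Most of the genes for partners of the carriers at photosystem I also rose. Of 6 genes for subunits at the docking sites of plastocyanin and ferredoxin, 5 rose, beside 8.69% called higher among all genes tested. The median log2 change of the 6 was 2.26. PSAN, a lumenal subunit on the plastocyanin side, rose 5.70-fold (5.53 to 5.87) to 1377 RPKM in red light, against 242 RPKM in darkness. PSAD2, on the ferredoxin side, rose 5.41-fold (5.24 to 5.59) to 966 RPKM, against 178 RPKM. PSAE1 rose 4.91-fold (4.78 to 5.05) to 1718 RPKM, against 349.8 RPKM, although 59.7% of its coding sequence lies inside the span of other genes. The remaining gene, PSAE2, was not called, at 616 RPKM in red light and 389 RPKM in darkness.

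Of 10 genes for enzymes that take electrons from ferredoxin, 2 were called higher and 0 lower, beside 8.69% higher and 5.35% lower among all genes tested, and the median log2 change of the 10 was 0.14. GLU1, the ferredoxin-dependent glutamate synthase of leaves, rose 2.96-fold (2.90 to 3.02) to 199.9 RPKM in red light, against 67.6 RPKM in darkness. FTRA2, a subunit of ferredoxin-thioredoxin reductase, rose 2.76-fold (2.49 to 3.07) to 64.7 RPKM, against 23.4 RPKM. NIR1, nitrite reductase, was not called at 183 RPKM in red light and 121 RPKM in darkness, and SIR, sulfite reductase, was at 91.7 and 88.4 RPKM. Of 10 genes for iron-sulfur cluster assembly in plastids, 0 were called in either direction, again near these background shares. Their median log2 change was 0.18, and SUFB, a scaffold protein, came nearest with 94.5 RPKM in red light and 54.4 RPKM in darkness.

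**Figure D4:**
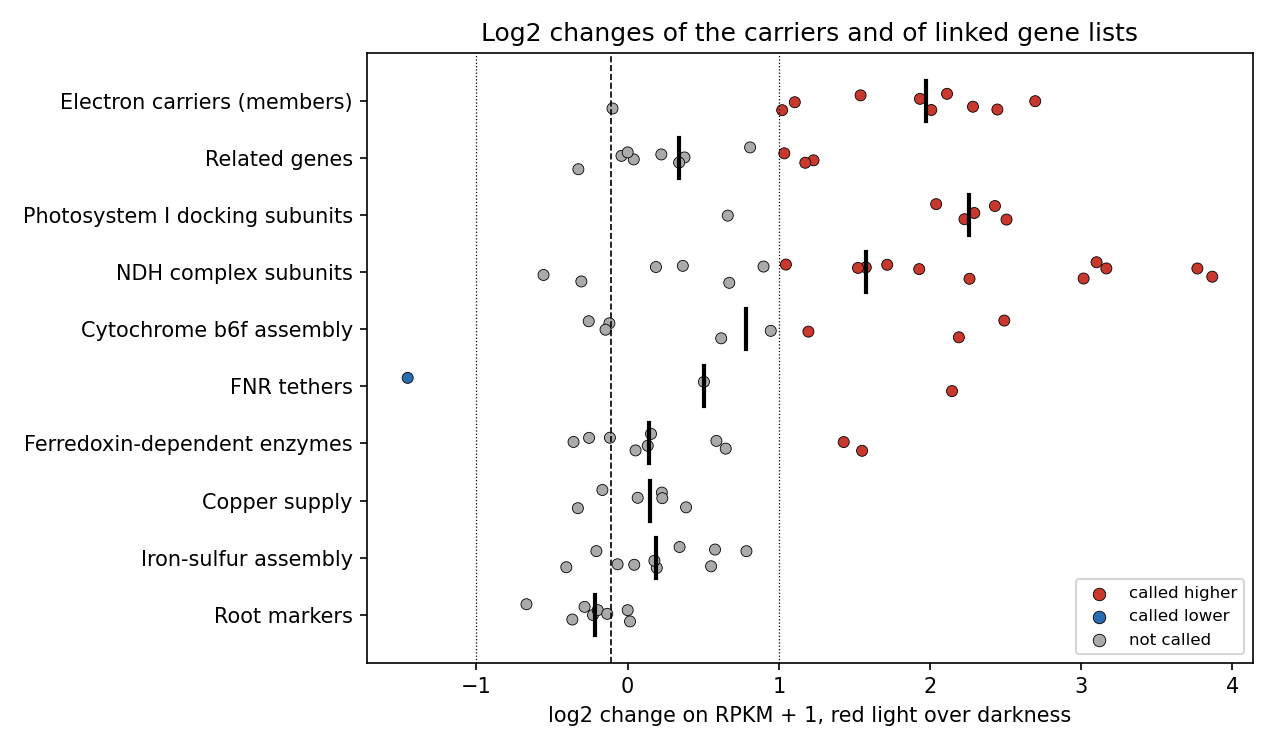
Log2 change on RPKM + 1 in red light over darkness for each gene of 10 lists (1 point per gene, shifted up or down only to separate points), with thick bars for list medians. The dashed line is the median of all genes tested (-0.11) and dotted lines mark the 2-fold threshold, and the medians of the carriers and the docking subunits, 1.97 and 2.26, lie to the right of it while those of copper supply and iron-sulfur assembly lie at 0.15 and 0.18.

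Set against PETC, levels of the mobile carriers differed between conditions. Summed plastocyanin RPKM was 3.82 times that of PETC in red light and 1.77 times in darkness, and leaf-type ferredoxin was 7.88 times and 3.85 times. Leaf-type FNR was 0.587 of the PETC level in red light and 0.303 in darkness, and FD3 was 0.332 in red light and 0.725 in darkness. These are ratios of transcript levels per coding length and say nothing of protein amounts.

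Over these 2 conditions alone, the genes nearest to FD2 in log2(RPKM + 1) were the antenna gene LHCA4 (4239 RPKM in red light and 679 RPKM in darkness), the antenna gene LHCB3 (4454 and 460.2 RPKM) and the photosystem I gene PSAK (2987 and 522 RPKM). Those nearest to FD3 were AT1G03220, annotated as an aspartyl protease (226 RPKM in red light and 235 RPKM in darkness), AT5G02450, annotated as a ribosomal protein (229.99 and 257 RPKM), and CAX1, a cation exchanger (232 and 233 RPKM). With 2 values per gene, such likeness is a description of level and difference only.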

How the data were processed

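Per the labels, 4 samples of Col-0 wild-type seedlings formed 2 groups, red light and darkness. The submitters' processing notes name TAIR10 as the build, and no source used here names the aligner, the counting program or the use of strand. The authors deposited estimated counts, whole numbers except that 0.5 stood for no read, which was set back to 0, and RPKM values. Scaled to the sum of the column, these gave the same gene length in both columns, and 99.99% of those lengths divide by 3, as coding lengths without UTRs do. Each condition had 1 column, so edgeR's quasi-likelihood test, the planned test for a column per sample, could not be used, and the planned calling rule stood in for it. The log2 changes are on RPKM + 1 and understate those of low genes, while ratios carry no added value. Reads carried no molecular identifiers, so they do not count independent molecules. The members and lists were chosen with earlier results of these data known.

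Text names all 10 members and 11 related genes, from each other list except tissue markers the top 3 called genes per direction by log2 change, the 6 light-label genes, and the 3 genes nearest to the members with the largest and the smallest change. CCB1, CCB2, PAA1, PAA2, CSD1, CSD2, PSAE2, TROL, NIR1, SIR, SUFB, CASP1 and PIN2, and the marker PDF1, were named after their values were seen. Of the 27416 transcripts, 26695 were matched by identifier to the RefSeq annotation of TAIR10.1, the source of the promoter sequences and coordinates, with equal coding length for 96.6% of the matches. All 10 members matched with the same length, and no coding base of theirs lies inside another gene. Calls were recomputed with TMM and upper-quartile factors (edgeR 4.0.16), DESeq2 1.42.0 size factors, quantile normalization and other thresholds, using R 4.3.3, Python 3.11.15 and scipy 1.17.1. On simulated data for red light against darkness, with 27416 genes at the real depths, the rule called 50 of 50 genes at each of a 3-fold rise, a 4-fold rise, a 3-fold fall and a 4-fold fall, and 0 of 27216 unchanged genes. Only counting error was simulated. The simulated rises and falls all lay well beyond the 2-fold threshold. The simulation therefore cannot judge calls near that threshold, such as those of PETC (ratio 2.03) and FD1 (2.15). In the real columns 12625 of the 27416 gene models reached 10 RPKM. Unchanged genes far below that minimum had no chance of a call, so they say little about false calls.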

Additional observations from a re-analysis of the deposited data

How the results depend on the processing

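Under TMM, DESeq2 and upper-quartile factors, a pseudocount of 0.1 and totals without organelle genes, 9 members were called higher and 0 lower. A minimum of 1 RPKM or none and a 1.5-fold threshold gave the same counts. These looser settings could not end the call of a member, since all 10 members reached 10 RPKM in the main setting. The median log2 change of the members lay between 1.97 and 2.04 under every scaling and pseudocount. Quantile normalization ended the call of FD1 (log2 change 0.84), leaving 8. A 4-fold threshold left 5 members (PETE1, PETE2, FNR2, FD2 and PGRL1A), and 398 genes higher and 124 lower among all genes. At 1.5-fold, 1910 genes were higher and 1934 lower, so that 49.7% of calls were higher against 61.9% at 2-fold. FD3 kept a log2 change between -0.10 and -0.03 in all scalings. Of the members' log2 changes recomputed under other scalings and the smaller pseudocount, 45 stayed within the main counting intervals and 15 left them. Under TMM factors the ratio was 6.81 for FD2 and 2.13 for PETC, each above its main counting interval. Shares of PETE2, FD2 and FNR1 by RPKM lay within the counting intervals of those by reads. For FD2 this was fixed in advance, since FD1 and FD2 have the same coding length. The plastocyanin copies (516 and 504 bases) and the FNR copies (1083 and 1110 bases) also differ little in length. No paired analysis was possible because each condition had 1 column, and for the same reason no replicate could be left out. Depth does not limit the members, whose lowest count was 1152 reads, but the missing replicate error limits every difference.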
